A study of Mus musculus with 30 samples.

Results

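The type I interferon response genes described here are 40 mouse genes named by symbol, chosen as sensors and their adaptor (5 genes), the interferon receptor chains (2), transcription factors (5), and 28 effectors in 3 subgroups, with the oligoadenylate synthetase family left out. They were found among 31854 genes in the time-course table of leukemia cells, 34406 genes in the table of normal cells and 32527 genes in the files of untreated lines. RNA sequencing of total RNA was done on 30 samples in 10 groups of 3, all from C57BL/6 mice. CALM/AF10 leukemia cells, named for the fusion they carry, were sampled alongside granulocyte-macrophage progenitors (GMPs) of normal bone marrow, before treatment (0 h) and after 6 h and 10 h with RG3039, an inhibitor of the scavenger decapping enzyme DCPS, at 1 µM per the file headers. Untreated CALM/AF10 lines 1 and 2 and untreated MLL/AF9 lines 1 and 2, another fusion of acute myeloid leukemia, made up the other 4 groups. Which CALM/AF10 line was treated is not given in the sources used here, and each line number is 1 line.

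Type I interferons bind a receptor built of IFNAR1 and IFNAR2, and the kinases JAK1 and TYK2 then phosphorylate STAT factors. STAT2 and IRF9 belong to the factor ISGF3, which binds a promoter element called the ISRE and switches on a large set of effectors against viruses. Upstream, RNA sensors of the RIG-I family signal through MAVS to IRF3 and IRF7, which switch on the interferon genes themselves.

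The ISRE core was searched as GAAA, any 2 bases and a further GAAA, on both strands and with overlapping matches allowed, in windows of 250 bases before to 50 bases after the start of each gene (RefSeq promoter table, build GRCm38.p6). Of the 40 genes, 31 were matched in that table, and 12 of these 31 (38.7%) held the core, against 1079 of all 27025 genes in the table (3.99%). Counted by window, it was found in 13 of 38 windows of these genes (34.2%) and in 1131 of all 32851 (3.44%). By role, the core was found in 2 of 3 sensors, 0 of 2 receptor chains, 1 of 5 transcription factors (Stat2) and, over the 3 effector subgroups, in 1 of 5, 6 of 9 and 2 of 7. The stretches below span 150 bases of 6 promoters whose genes are described in the following paragraphs, 5′ to 3′ on the strand of the gene, and capitals mark the matches.
Isg15, minus strand, chr4:156200869-156201018: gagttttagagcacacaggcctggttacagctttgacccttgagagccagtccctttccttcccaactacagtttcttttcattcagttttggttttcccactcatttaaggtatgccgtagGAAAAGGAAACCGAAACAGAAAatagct
Ifit1, plus strand, chr19:34640689-34640838: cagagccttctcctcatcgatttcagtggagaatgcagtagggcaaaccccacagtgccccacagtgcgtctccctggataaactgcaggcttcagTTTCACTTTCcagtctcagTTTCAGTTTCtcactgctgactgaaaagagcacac
Ifit3, plus strand, chr19:34583329-34583478: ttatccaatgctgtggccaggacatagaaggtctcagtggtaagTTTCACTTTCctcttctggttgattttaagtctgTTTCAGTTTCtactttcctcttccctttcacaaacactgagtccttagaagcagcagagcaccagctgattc
Ifit3b, plus strand, chr19:34607757-34607906: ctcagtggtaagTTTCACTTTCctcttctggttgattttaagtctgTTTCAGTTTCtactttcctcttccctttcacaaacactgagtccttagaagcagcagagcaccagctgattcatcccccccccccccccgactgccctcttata
Rsad2, minus strand, chr12:26456503-26456652: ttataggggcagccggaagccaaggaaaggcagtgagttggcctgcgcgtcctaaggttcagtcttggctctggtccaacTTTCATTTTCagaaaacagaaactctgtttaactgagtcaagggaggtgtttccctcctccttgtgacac
Bst2, minus strand, chr8:71537523-71537672: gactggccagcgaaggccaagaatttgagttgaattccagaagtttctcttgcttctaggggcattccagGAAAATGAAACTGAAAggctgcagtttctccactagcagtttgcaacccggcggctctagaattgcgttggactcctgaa
In Isg15 there were 3 matches that overlap in a single run, and in Bst2 2 that overlap. Ifit1, Ifit3 and Ifit3b each held 2 separate matches, read on the opposite strand. Rsad2 held 1, whereas none was found in the window of its divergent neighbour Cmpk2, whose start lies 12752 bases away on chromosome 12. The windows of Irf7 and Ifit2 held none either. A match is a string of letters and not a measured binding site.

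Values of the time course are TPM, transcripts scaled to a fixed total in each sample, per gene, and each change given below is a difference in mean log2(TPM + 1) with its standard error and an adjusted p from limma, over all genes tested. This scale understates the change of genes near or below 1 TPM. A gene was tested where at least 3 samples of its table reached 1 TPM, which 37 of the 40 did in CALM/AF10 cells (not Ifi44, Ifit3b and Mx2) and 36 in GMPs (not these or Ifit3). The files of the time course give no read depth. Samples of a group are called a, b and c in column order. Nothing in the labels says that they came from separate cultures or animals, so the p-values measure the spread between these samples. No untreated samples at 6 h and 10 h were analysed here, so treatment and time in culture cannot be told apart. In bulk RNA, fewer cells of a type and less RNA per cell cannot be told apart either.

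In CALM/AF10 cells most of the interferon response genes tested had risen at 10 h and few at 6 h, whereas in GMPs most had risen at 6 h and 15 fell between 6 h and 10 h. At 10 h in CALM/AF10 cells 21 of the 37 tested rose and 0 fell, against 10.5% and 8.64% of all genes, and 1 fell at an unadjusted p under 0.05. The median change of these 37 was 0.46, against 0.013 over all genes. At 6 h, 3 rose (Irf9, Cmpk2 and Ifi27) and 1 fell (Ifnar1), with a median of -0.013. The share that rose was a little above the 5.44% of all genes, and the share that fell was below the 7.14%. From 6 h to 10 h, 8 rose and 0 fell (2.18% and 0.749% of all genes), and 27 rose and 0 fell at an unadjusted p under 0.05. The percentages are for adjusted p, and the share of all genes at the unadjusted threshold is not given here.

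In GMPs 20 of 36 rose at 6 h and 3 fell, against 24.1% and 19.9% of all genes, with a median change of 0.54 against -0.016. Rsad2 and Mx1 passed the filter through their 6 h values alone and so had to differ. Without these, 18 of 34 rose and the median was 0.48. By 10 h, 9 of 36 were above 0 h and 5 below, shares near or below the 23.7% and 21.5% of all genes, with a median of 0.007. Between 6 h and 10 h 15 fell, or 13 of 34 without Rsad2 and Mx1, and 0 rose (3.87% and 3.21% of all genes). At an unadjusted p under 0.05, 22 fell and 0 rose, a threshold for which the share of all genes is not given here. The 15 became 8 without 10 h sample a or c and 9 without 6 h sample a or b, and the 5 below 0 h at 10 h became 3 without 10 h sample a.

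**Figure D1:**
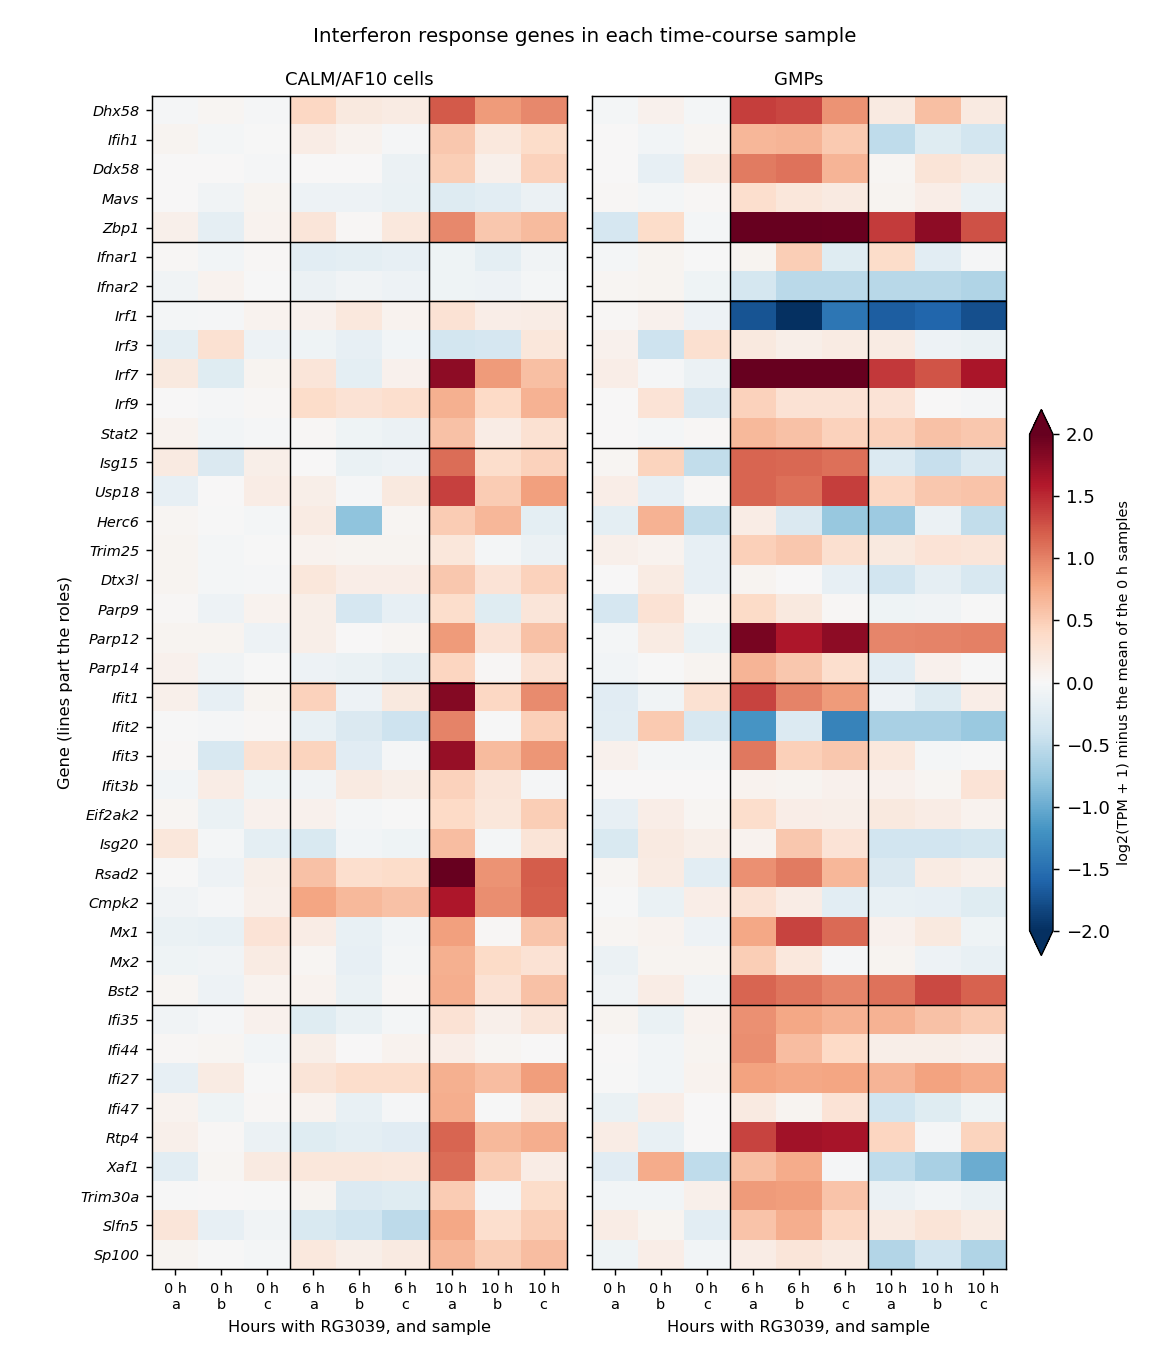
Change of each of the 40 genes in each time-course sample, as log2(TPM + 1) minus the mean of the 3 samples at 0 h of the same cells; colours stop at -2 and 2, and genes are ordered by role. Red lies mainly in the 10 h columns of CALM/AF10 cells and in the 6 h columns of GMPs, and Irf1 is the blue row in GMPs.

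The 3 samples of CALM/AF10 cells at 10 h were not alike. Sample a was the highest of the 3 for 30 of the 37 genes, with a median of 0.71 above the 0 h mean, against 0.27 in sample b and 0.46 in sample c. The medians over all genes in the same samples were -0.019, -0.0002 and 0.061. Without sample a, 14 genes rose at 10 h against 0 h, and without sample b 25 did. Leaving out a 0 h sample gave 16, 13 and 14 (samples a, b and c). From 6 h to 10 h, 19 rose without 10 h sample b, while 4 rose when 10 h sample a or c or any 1 of the 6 h samples was left out, and 5 without 0 h sample c. At 6 h against 0 h, 1 rose or 0 did when any 1 sample of those times was left out, and 0 fell. At 10 h, 1 fell against 0 h without 10 h sample c. In GMPs at 6 h the medians of samples a, b and c were 0.63, 0.63 and 0.37.

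Among the sensors, Dhx58, Ifih1, Ddx58 and Zbp1 rose at 10 h in CALM/AF10 cells and at 6 h in GMPs, while Mavs passed the test in neither. Dhx58 encodes LGP2, a regulator of the RIG-I family. It read 7.05, 7.40 and 6.98 TPM at 0 h, 9.82, 8.35 and 8.13 at 6 h and 18.1, 13.6 and 14.9 at 10 h in CALM/AF10 cells (samples a, b and c). The 10 h samples lay above all others, a change of 1.02 ± 0.10 (adjusted p = 0.000191) from 0 h. In GMPs Dhx58 read 2.35, 2.64 and 2.33 TPM at 0 h, 7.93, 7.66 and 5.37 at 6 h and 2.89, 4.21 and 2.91 at 10 h, so the 3 samples at 6 h lay above both other times. The change was 1.20 ± 0.17 (adjusted p = 0.000377) at 6 h and 0.32 ± 0.17 (adjusted p = 0.142) at 10 h.

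Zbp1, a sensor of Z-form nucleic acid, had the largest change of the sensors in GMPs. Its TPM there were 1.48, 3.03 and 2.03 at 0 h, 15.6, 13.4 and 11.3 at 6 h and 7.24, 9.76 and 6.51 at 10 h, with no overlap between the 0 h samples and the later ones. The changes from 0 h were 2.20 ± 0.20 (adjusted p = 3.47e-05) and 1.49 ± 0.20 (adjusted p = 0.000332). In CALM/AF10 cells, where Zbp1 was already at 50.1, 41.2 and 48.9 TPM before treatment, it read 55.4, 47.4 and 53.8 at 6 h and 91.1, 68.2 and 72.7 at 10 h, a change of 0.71 ± 0.11 (adjusted p = 0.0024) at 10 h. The tables of the 2 cell types were normalized separately, so these levels are set side by side without a test.

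Ddx58, which encodes RIG-I, went from 2.14, 1.78 and 2.50 TPM to 5.46, 5.60 and 4.03 at 6 h in GMPs, a change of 0.94 ± 0.15 (adjusted p = 0.000801), and to 2.20, 2.72 and 2.55 at 10 h. Its samples at 10 h overlapped those at 0 h. The leukemia cells had 12.5, 12.5 and 12.2 TPM of it at 0 h and 17.9, 13.4 and 17.4 at 10 h, a change of 0.36 ± 0.10 (adjusted p = 0.0309). Ifih1, which encodes the sensor MDA5, read 4.00, 3.77 and 4.09 TPM in GMPs at 0 h, 6.89, 6.91 and 6.13 at 6 h and 2.50, 3.17 and 2.86 at 10 h. It was above its starting level at 6 h, a change of 0.62 ± 0.10 (adjusted p = 0.0012), and below it at 10 h, a change of -0.37 ± 0.10 (adjusted p = 0.0175). Ifih1 in CALM/AF10 cells went from 8.48, 7.85 and 8.07 TPM to 12.3, 9.54 and 10.7, a change of 0.37 ± 0.090 (adjusted p = 0.0189). The calls of Ifih1 and Ddx58 at 10 h in CALM/AF10 cells were lost in 3 of 9 and 5 of 9 fits that left out a sample, with adjusted p up to 0.0602 (without 0 h sample b) and 0.0961 (without 10 h sample a). Without 10 h sample a, the fall of Ifih1 in GMPs had an adjusted p of 0.0682. Mavs, the adaptor of both, stayed between 6.85 and 9.80 TPM in GMPs and between 9.59 and 12.2 TPM in CALM/AF10 cells.

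Neither receptor chain rose in either cell type. Ifnar2 fell in GMPs, from 82.2, 82.6 and 75.1 TPM to 62.3, 54.6 and 54.6 at 6 h and 54.2, 53.9 and 52.4 at 10 h, changes of -0.48 ± 0.067 (adjusted p = 0.000402) and -0.57 ± 0.067 (adjusted p = 0.000126). Over the 9 samples of CALM/AF10 cells it ranged from 115.5 to 132.3 TPM and passed no test. Ifnar1 read 20.1, 19.0 and 19.98 TPM at 0 h and 16.8, 17.0 and 17.6 at 6 h in CALM/AF10 cells, a change of -0.19 ± 0.055 (adjusted p = 0.0496). That call was lost in 7 of 9 fits without a sample (adjusted p up to 0.143, without 6 h sample a), and Ifnar1 passed no other test in the time course.

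Among the transcription factors, Irf7 had the largest rise and Irf1 the largest fall, both in GMPs. Irf7, the main inducer of the interferon alpha genes, read 2.99, 2.56 and 2.33 TPM in GMPs at 0 h, 20.7, 19.9 and 16.6 at 6 h and 8.63, 7.65 and 10.2 at 10 h. The 3 times did not overlap, and the changes from 0 h were 2.47 ± 0.13 (adjusted p = 1.13e-06) and 1.43 ± 0.13 (adjusted p = 2.41e-05). Irf7 in CALM/AF10 cells read 11.1, 7.92 and 9.96 TPM at 0 h, 11.6, 8.24 and 10.3 at 6 h and 35.8, 17.99 and 15.1 at 10 h. All 10 h samples lay above the others, sample a by the most, for a change of 1.08 ± 0.27 (adjusted p = 0.021). Its adjusted p rose to 0.069 without 0 h sample b, and the call was lost in 2 of 9 fits without a sample (0 h samples b and c).

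Irf1, an activator that interferon gamma induces strongly, went the other way in GMPs, from 71.5, 74.7 and 65.2 TPM at 0 h to 20.6, 15.7 and 25.2 at 6 h and 21.7, 22.7 and 20.2 at 10 h. The changes were -1.76 ± 0.14 (adjusted p = 1.62e-05) and -1.67 ± 0.14 (adjusted p = 1.84e-05), with no overlap with 0 h. Irf1 was between 45.2 and 57.3 TPM in all 9 samples of CALM/AF10 cells, and its change at 10 h was 0.19 ± 0.062 (adjusted p = 0.0592).

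Stat2 and Irf9 are the ISGF3 subunits among the 40 genes. In GMPs Stat2 went from 4.23, 4.07 and 4.28 TPM to 7.14, 6.78 and 6.11 at 6 h and was 6.13, 6.81 and 6.53 at 10 h, changes of 0.56 ± 0.091 (adjusted p = 0.000953) and 0.53 ± 0.091 (adjusted p = 0.00126). The leukemia cells had Stat2 at 15.6, 14.3 and 14.6 TPM at 0 h, 15.1, 13.9 and 13.5 at 6 h and 22.8, 16.6 and 18.6 at 10 h, a change of 0.35 ± 0.10 (adjusted p = 0.0383) at 10 h. That last call was lost in 7 of 9 fits without a sample, with adjusted p up to 0.104 (without 0 h sample b). Irf9 read 9.98, 9.81 and 10.1 TPM at 0 h in CALM/AF10 cells, 13.1, 12.3 and 12.9 at 6 h and 16.97, 13.4 and 16.7 at 10 h. It rose at 6 h, a change of 0.33 ± 0.085 (adjusted p = 0.0326), and at 10 h, a change of 0.60 ± 0.085 (adjusted p = 0.00121). The call at 6 h was lost in 6 of 9 fits without a sample (adjusted p up to 0.103, without 6 h sample a) and that at 10 h in none. In GMPs Irf9 overlapped between 0 h and 10 h and passed no test. Irf3, which is activated by phosphorylation, ranged from 28.9 to 49.0 TPM in GMPs and from 29.4 to 47.1 in CALM/AF10 cells and passed no test.

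**Figure D2:**
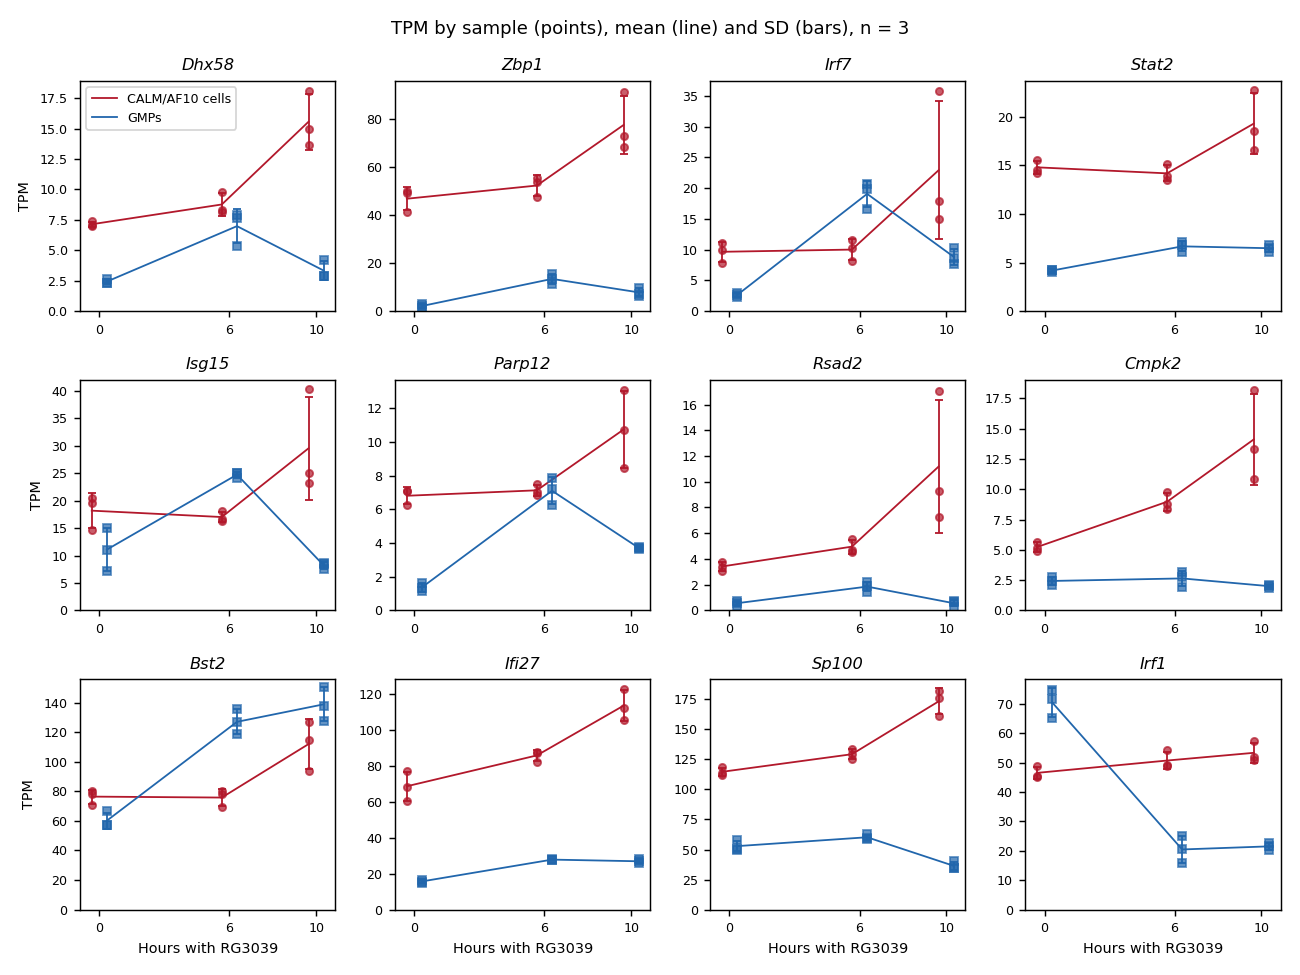
TPM of 12 genes against hours with RG3039, with a point per sample, lines through the means and bars for the SD (n = 3), in CALM/AF10 cells (red circles) and GMPs (blue squares). Most red lines turn up between 6 h and 10 h, and the blue lines of Dhx58, Zbp1, Irf7, Isg15, Parp12 and Rsad2 peak at 6 h; the 2 tables were normalized separately.

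Of the 8 effectors in the ubiquitin-like and PARP subgroup, 4 rose at 10 h in CALM/AF10 cells (Isg15, Usp18, Dtx3l and Parp12). In GMPs 5 rose at 6 h (Isg15, Usp18, Trim25, Parp12 and Parp14). The shares of all genes that rose were 10.5% in the former and 24.1% in the latter. Isg15, whose ubiquitin-like product is attached to other proteins, read 11.1, 14.97 and 7.27 TPM in GMPs at 0 h, 25.1, 24.98 and 24.1 at 6 h and 8.66, 7.49 and 8.51 at 10 h. It rose at 6 h, a change of 1.14 ± 0.20 (adjusted p = 0.0014), and fell from 6 h to 10 h, a change of -1.48 ± 0.20 (adjusted p = 0.0037). Isg15 in CALM/AF10 cells read 20.4, 14.6 and 19.6 TPM at 0 h, 18.04, 16.4 and 16.7 at 6 h and 40.3, 23.3 and 25.1 at 10 h. All 10 h samples lay above the rest, a change of 0.64 ± 0.19 (adjusted p = 0.0417), but the call was lost in 8 of 9 fits without a sample (adjusted p up to 0.125, without 0 h sample b).

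Usp18, which removes ISG15 and restrains the receptor, read 3.68, 4.27 and 4.84 TPM at 0 h, 4.70, 4.14 and 4.97 at 6 h and 12.5, 6.48 and 8.29 at 10 h in CALM/AF10 cells, a change of 0.90 ± 0.19 (adjusted p = 0.00919) at 10 h. In GMPs it read 0.937, 0.586 and 0.806 TPM, then 2.97, 2.80 and 3.63 at 6 h and 1.35, 1.58 and 1.64 at 10 h, changes of 1.22 ± 0.14 (adjusted p = 0.000124) and 0.51 ± 0.14 (adjusted p = 0.0148). Without 10 h sample c, the latter had an adjusted p of 0.052. The largest change of this subgroup was in Parp12, an ADP-ribosyltransferase, which went from 1.31, 1.65 and 1.16 TPM in GMPs to 7.85, 6.26 and 7.18 at 6 h and 3.66, 3.70 and 3.77 at 10 h. The 3 times did not overlap, and the changes were 1.77 ± 0.12 (adjusted p = 5.91e-06) and 0.99 ± 0.12 (adjusted p = 0.000159). Parp12 in CALM/AF10 cells went from 7.08, 7.09 and 6.24 TPM at 0 h to 13.1, 8.44 and 10.7 at 10 h, a change of 0.57 ± 0.13 (adjusted p = 0.0127).

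Dtx3l and Parp9 encode partners of a ubiquitin ligase complex. Dtx3l went from 22.99, 21.4 and 21.7 TPM to 32.3, 26.7 and 30.7 at 10 h in CALM/AF10 cells, a change of 0.42 ± 0.071 (adjusted p = 0.00327). In GMPs Dtx3l was lower at 10 h than at 0 h, a change of -0.30 ± 0.11 (adjusted p = 0.0465), a call lost in 6 of 9 fits without a sample (adjusted p up to 0.142, without 0 h sample b). Parp9 ranged from 17.6 to 29.1 TPM in CALM/AF10 cells and from 9.07 to 15.5 in GMPs and passed no test. These 2 genes overlap by 682 bases on opposite strands of chromosome 16, and whether counting used strand is not given in the sources used here. Trim25, a ubiquitin ligase that acts on RIG-I, rose in GMPs at 6 h, a change of 0.45 ± 0.086 (adjusted p = 0.00261), from 25.9, 25.2 and 21.4 to 33.9, 35.3 and 30.5 TPM. Its change at 10 h was 0.24 ± 0.086 (adjusted p = 0.0488), a call lost in 7 of 9 fits without a sample (adjusted p up to 0.139, without 0 h sample c). Parp14 rose in GMPs at 6 h, from 2.39, 2.49 and 2.64 to 4.61, 4.08 and 3.41 TPM, a change of 0.52 ± 0.13 (adjusted p = 0.0109). Herc6, the mouse ligase for ISG15, ranged from 2.75 to 9.22 TPM in GMPs and from 1.71 to 6.51 in CALM/AF10 cells and passed no test.

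Of the 11 effectors that act on RNA or viruses, 9 were tested in CALM/AF10 cells of which 6 rose at 10 h and 1, Cmpk2, at 6 h. The shares of all genes that rose there were 10.5% at 10 h and 5.44% at 6 h. Rsad2, which encodes viperin, and Cmpk2, a nucleotide kinase encoded next to it, had the largest changes of the 37 genes tested in these cells. Rsad2 read 3.37, 3.10 and 3.78 TPM at 0 h, 5.59, 4.57 and 4.71 at 6 h and 17.1, 7.25 and 9.25 at 10 h, a change of 1.39 ± 0.24 (adjusted p = 0.00331) at 10 h. Cmpk2 read 4.90, 5.12 and 5.67 TPM at 0 h, 9.78, 8.78 and 8.36 at 6 h and 18.2, 10.9 and 13.3 at 10 h, so that no 2 times overlapped. Its changes were 0.68 ± 0.15 (adjusted p = 0.0178) at 6 h and 1.25 ± 0.15 (adjusted p = 0.000524) at 10 h, and the former was lost in 3 of 9 fits without a sample (adjusted p up to 0.0669, without 6 h sample a). In GMPs Rsad2, which passed the filter there through its 6 h values alone, read 0.598, 0.749 and 0.340 TPM at 0 h, 1.91, 2.18 and 1.47 at 6 h and 0.274, 0.738 and 0.669 at 10 h, while Cmpk2 read between 1.89 and 3.20 TPM and passed no test.

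Ifit1 binds viral RNA by its cap and lies in a cluster of related genes on chromosome 19. It read 3.22, 2.51 and 3.07 TPM at 0 h, 4.41, 2.67 and 3.47 at 6 h and 13.03, 4.22 and 6.59 at 10 h in CALM/AF10 cells. Sample a stood above samples b and c at 10 h, and the change of 1.07 ± 0.30 (adjusted p = 0.0354) was lost in 6 of 9 fits without a sample (adjusted p up to 0.0981, without 0 h sample b). In GMPs Ifit1 read 0.404, 0.554 and 1.02 TPM at 0 h, 3.17, 2.26 and 1.95 at 6 h and 0.531, 0.378 and 0.801 at 10 h, a change of 1.06 ± 0.20 (adjusted p = 0.00233) at 6 h.

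Ifit3 went from 2.26, 1.57 and 2.95 TPM to 9.77, 3.98 and 4.94 at 10 h in CALM/AF10 cells, a change of 1.09 ± 0.29 (adjusted p = 0.0267), a call lost in 3 of 9 fits without a sample (adjusted p up to 0.0872, without 0 h sample b). Of the 50-base words in its longest coding transcript, 51.2% also occur in Ifit3b, so the share of reads given to each is uncertain. Ifit3b was below 1 TPM in all 18 time-course samples. In GMPs Ifit3 was listed at 0 in 2 samples at 0 h and reached 1.14 TPM at most, in 6 h sample a. Ifit2, their neighbour, went from 4.48, 8.12 and 4.04 TPM in GMPs to 1.79, 4.22 and 1.51 at 6 h and 3.04, 3.03 and 2.76 at 10 h. The fall at 6 h, a change of -0.93 ± 0.30 (adjusted p = 0.0303), was lost in 3 of 9 fits without a sample (adjusted p up to 0.0992, without 6 h sample c), and the groups overlapped. Ifit2 in CALM/AF10 cells read 4.86, 4.78 and 4.99 TPM at 0 h and 10.7, 4.86 and 7.22 at 10 h, a change of 0.49 ± 0.20 (adjusted p = 0.129).

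Bst2, which encodes tetherin and holds budding viruses at the cell surface, stayed high in GMPs. It read 57.1, 66.4 and 56.98 TPM at 0 h, 135, 127 and 119 at 6 h and 128, 151 and 138 at 10 h, changes of 1.07 ± 0.085 (adjusted p = 1.46e-05) and 1.19 ± 0.085 (adjusted p = 6.37e-06). The same gene in CALM/AF10 cells read 78.2, 71.1 and 79.97 TPM at 0 h, 80.1, 69.4 and 77.8 at 6 h and 127, 93.9 and 115 at 10 h, a change of 0.54 ± 0.10 (adjusted p = 0.00633) at 10 h. Eif2ak2, which encodes the RNA-activated kinase PKR, rose at 10 h in CALM/AF10 cells from 10.7, 9.43 and 11.1 to 14.1, 12.4 and 14.99 TPM, a change of 0.37 ± 0.085 (adjusted p = 0.0136), and passed no test in GMPs. Mx1, of the dynamin-like GTPase family, read 0.681, 0.718 and 0.522 TPM at 0 h, 1.80, 3.20 and 2.58 at 6 h and 0.742, 0.872 and 0.551 at 10 h in GMPs. Its change at 10 h in CALM/AF10 cells was 0.46 ± 0.20 (adjusted p = 0.138). Isg20, an exonuclease, ranged from 7.91 to 15.7 TPM in CALM/AF10 cells and passed no test there, and Mx2 was at 1.59 TPM or below in every time-course sample. Some transcript sequence is shared with other genes, measured as 50-base words found elsewhere: 4.77% in Mx1 and 7.13% in Ifit1, and, among genes given elsewhere, 23.8% in Herc6, 13.6% in Rtp4, 10.2% in Sp100, 8.87% in Ifnar2 and 6.53% in Trim30a. Their levels are uncertain to that extent.

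Among the 9 other effectors, Ifi27, Rtp4, Slfn5 and Sp100 rose at 10 h in CALM/AF10 cells, where 10.5% of all genes rose. Ifi35, Ifi27, Rtp4, Trim30a and Slfn5 rose at 6 h in GMPs, where 24.1% of all genes did. Sp100, a component of nuclear bodies, had the lowest adjusted p of the 37 genes tested in CALM/AF10 cells. It read 118, 114 and 112 TPM at 0 h, 133, 125 and 129.5 at 6 h and 182, 161 and 176 at 10 h, a change of 0.59 ± 0.052 (adjusted p = 7.71e-05) at 10 h. In GMPs Sp100 went the other way, from 49.9, 57.97 and 50.7 TPM at 0 h to 34.7, 40.1 and 34.4 at 10 h, a change of -0.53 ± 0.081 (adjusted p = 0.000657), after 58.4, 62.6 and 59.7 at 6 h. Rtp4, a receptor-transporting protein, had the largest change of this subgroup in GMPs, from 1.93, 1.38 and 1.68 TPM to 5.75, 7.53 and 7.30 at 6 h, a change of 1.56 ± 0.17 (adjusted p = 7.98e-05), and read 2.58, 1.62 and 2.62 at 10 h. In CALM/AF10 cells Rtp4 read 7.33, 6.86 and 6.13 TPM at 0 h, 5.57, 5.76 and 5.65 at 6 h and 16.4, 11.1 and 11.8 at 10 h, a change of 0.84 ± 0.13 (adjusted p = 0.00176) at 10 h.

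Ifi27, a small mitochondrial protein gene, was higher at both times in both cells. In GMPs it read 15.6, 15.1 and 16.5 TPM at 0 h, 28.2, 27.6 and 27.9 at 6 h and 25.9, 28.2 and 26.9 at 10 h, changes of 0.79 ± 0.061 (adjusted p = 1.28e-05) and 0.74 ± 0.061 (adjusted p = 1.57e-05). The leukemia cells read 60.9, 77.2 and 68.3 TPM at 0 h, 82.5, 87.6 and 87.96 at 6 h and 112, 106 and 123 at 10 h, changes of 0.32 ± 0.085 (adjusted p = 0.0344) and 0.72 ± 0.085 (adjusted p = 0.000442). The call at 6 h was lost in 5 of 9 fits without a sample (adjusted p up to 0.102, without 6 h sample c). Ifi35 stayed high in GMPs, at 9.65, 8.36 and 9.75 TPM at 0 h, 18.3, 16.5 and 15.6 at 6 h and 15.6, 14.3 and 13.6 at 10 h, changes of 0.80 ± 0.092 (adjusted p = 0.000127) and 0.60 ± 0.092 (adjusted p = 0.00065). Trim30a rose in GMPs from 3.86, 3.87 and 4.42 to 8.10, 7.96 and 6.48 TPM at 6 h, a change of 0.75 ± 0.11 (adjusted p = 0.000485), and read 3.63, 3.85 and 3.62 at 10 h. Slfn5 rose there from 3.27, 2.99 and 2.33 to 4.74, 5.34 and 4.10 TPM at 6 h, a change of 0.57 ± 0.13 (adjusted p = 0.00645). Slfn5 in CALM/AF10 cells read 21.3, 15.8 and 17.1 TPM at 0 h, 14.3, 13.3 and 12.1 at 6 h and 31.2, 22.97 and 25.6 at 10 h, a change of 0.53 ± 0.13 (adjusted p = 0.0182), which was lost in 3 of 9 fits without a sample (adjusted p up to 0.0623, without 0 h sample b). Ifi47 and Xaf1 passed no test against 0 h in either cell type, and Ifi44 reached 1.32 TPM at most, in GMPs at 6 h (sample a).

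The difference between the cells was tested directly, by subtracting each gene's change in GMPs from its change in CALM/AF10 cells, each taken within its own table, over the 37 genes that passed the filter. At 6 h the change was lower in CALM/AF10 cells for 19 genes and higher for 3 (Ifnar2, Irf1 and Cmpk2), against 22.2% and 16.2% of all genes. Among those lower, Irf7 differed most, by -2.42 ± 0.32 (adjusted p = 2.69e-05), then Zbp1 by -2.04 ± 0.25 (adjusted p = 8.87e-06) and Rtp4 by -1.78 ± 0.21 (adjusted p = 8.18e-06). Among those higher, Irf1 differed by 1.88 ± 0.16 (adjusted p = 2.87e-07). At 10 h, 16 changes were higher in CALM/AF10 cells and 3 lower (18.5% and 20.2% of all genes). Those higher included Cmpk2 by 1.44 ± 0.22 (adjusted p = 7.65e-05), Rsad2 by 1.39 ± 0.31 (adjusted p = 0.00212), Sp100 by 1.12 ± 0.10 (adjusted p = 2.5e-07) and Irf1 by 1.86 ± 0.16 (adjusted p = 3.05e-07). Those lower were Zbp1 by -0.78 ± 0.25 (adjusted p = 0.0203), Bst2 by -0.66 ± 0.14 (adjusted p = 0.00169) and Ifi35 by -0.39 ± 0.12 (adjusted p = 0.0153). Without 10 h sample a of CALM/AF10 cells the counts at 10 h were 9 higher and 7 lower, and without sample b 19 and 2. The call of Zbp1 at 10 h was lost in 3 of 18 fits without a sample (adjusted p up to 0.0556, without GMP 10 h sample b). Irf7 at 10 h, -0.35 ± 0.32 (adjusted p = 0.418), and Stat2, -0.18 ± 0.13 (adjusted p = 0.307), passed no test of the difference. The comparisons at 6 h and 10 h share the samples at 0 h.

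**Figure D3:**
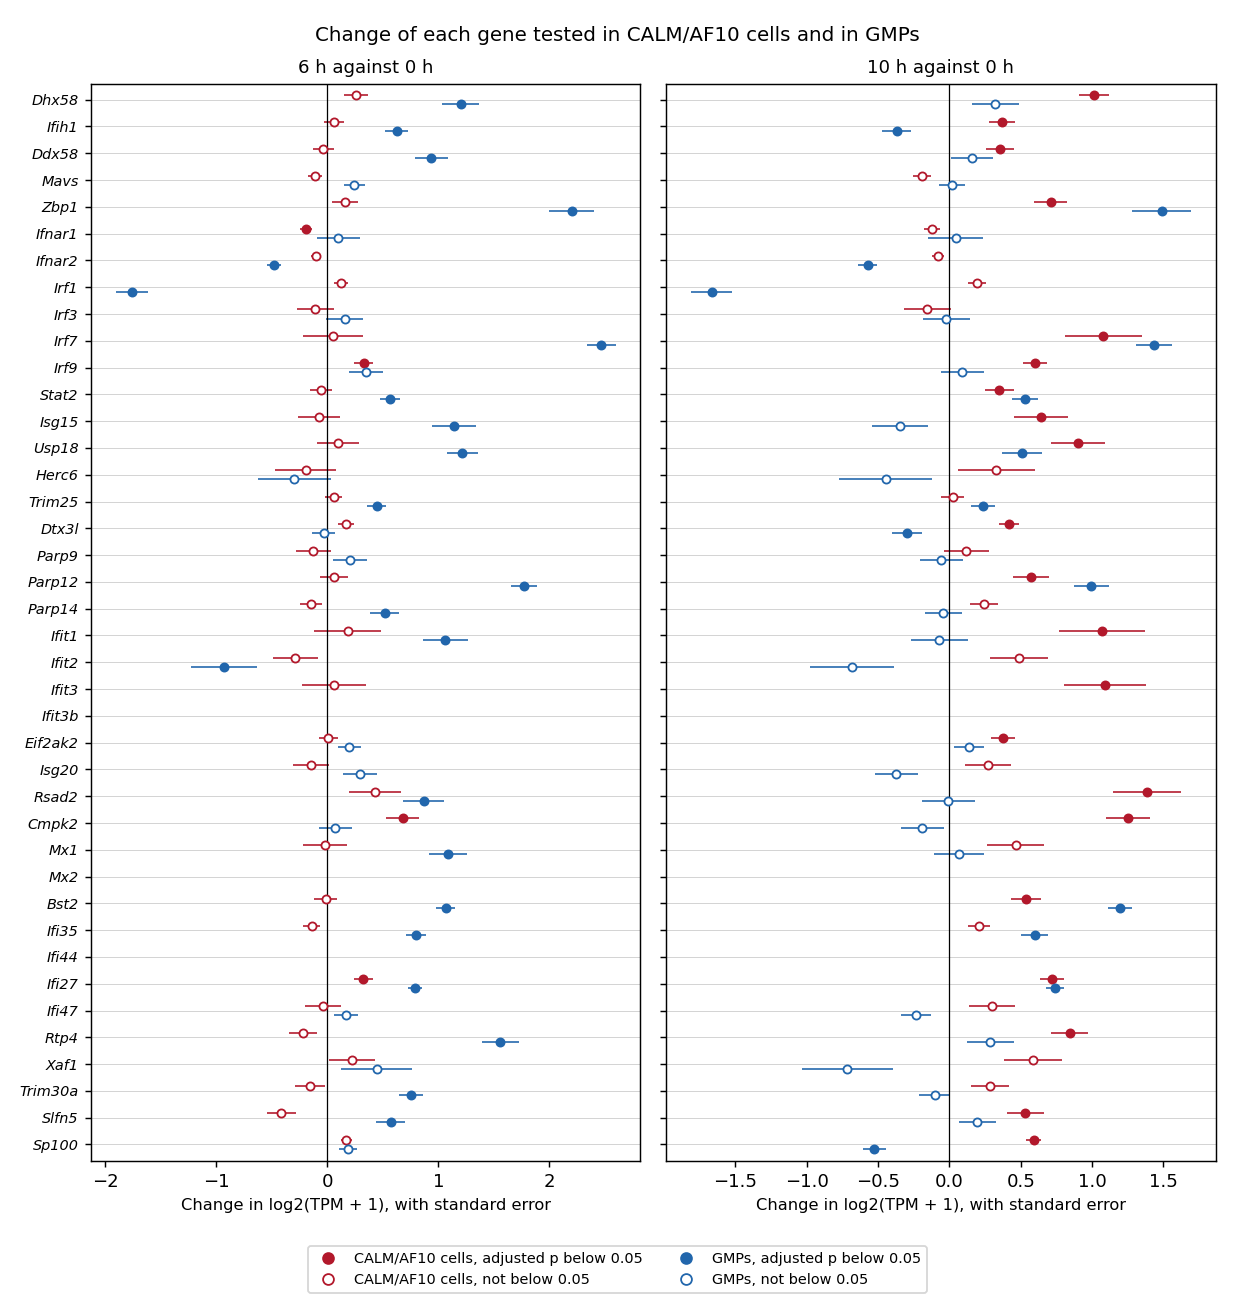
Change in log2(TPM + 1) from 0 h to 6 h (left) and to 10 h (right), with its standard error, for each gene tested in CALM/AF10 cells (red) and GMPs (blue); filled points have an adjusted p below 0.05. At 6 h the filled points are mostly blue and right of 0, and at 10 h the red points of 21 genes are filled and right of 0.

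Genes of the same pathway outside the 40 were followed in 3 lists. Of 20 interferon genes, none passed the filter in either table, and their summed level was at most 1.09 TPM in CALM/AF10 cells and 2.85 TPM in GMPs. That highest sum was in a 0 h sample, and at 6 h in GMPs the sums were 0.285, 0.924 and 0.272 TPM. Of 20 signalling partners 19 were tested. At 10 h in CALM/AF10 cells 2 rose, among them the adaptor gene Myd88, from 39.2 ± 2.40 to 48.1 ± 1.79 TPM (mean ± SD, n = 3), a change of 0.29 ± 0.059 (adjusted p = 0.00815). That count is at the 10.5% of all genes. In GMPs at 6 h, 6 rose and 4 fell, shares near the 24.1% and 19.9% of all genes. The suppressors of cytokine signalling Socs1 and Socs3 had the largest rises there, Socs1 from 2.64 ± 0.119 to 36.9 ± 3.78 TPM, a change of 3.38 ± 0.081 (adjusted p = 1.3e-08), and Socs3 from 2.25 ± 0.282 to 22.2 ± 0.735 TPM, a change of 2.84 ± 0.088 (adjusted p = 4.41e-08). Irf8, a factor of monocyte and dendritic lineages, fell from 51.7 ± 3.17 to 13.4 ± 0.684 TPM, a change of -1.87 ± 0.078 (adjusted p = 2.74e-07). Socs1 in CALM/AF10 cells was at 36.2 ± 0.504 TPM at 0 h and 36.8 ± 5.63 at 10 h, a change of 0.016 ± 0.10 (adjusted p = 0.938).

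The third list held 35 other interferon-stimulated genes. At 10 h in CALM/AF10 cells 15 of the 32 tested rose, against 10.5% of all genes. Among these Ifi204, a DNA sensor gene, had the largest change, of 0.73 ± 0.18 (adjusted p = 0.0217). In GMPs 15 of 34 rose and 3 fell at 6 h, against 24.1% and 19.9% of all genes. At 10 h there, 9 rose and 8 fell, shares near the 23.7% and 21.5% of all genes. The transmembrane restriction factors Ifitm1 and Ifitm3 rose most in GMPs, Ifitm1 from 51.6 ± 5.04 TPM at 0 h to 689.8 ± 34.6 at 6 h and 1248 ± 81.5 at 10 h, a change of 4.57 ± 0.079 (adjusted p = 3.12e-09), and Ifitm3 from 158 ± 9.24 to 1706 ± 76.6 TPM at 10 h. Cxcl10, a chemokine, fell from 169 ± 6.06 TPM to 34.5 ± 5.64 at 6 h and 2.18 ± 0.901 at 10 h, a change of -5.79 ± 0.20 (adjusted p = 6.64e-08).

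Cell type markers, among them those of the progenitors themselves, moved in GMPs at the same times. Of 8 myeloid progenitor genes, 7 fell at 6 h and 8 at 10 h, against 19.9% and 21.5% of all genes. Their summed level was 20350 to 21300 TPM at 0 h, 12370 to 12980 at 6 h and 10140 to 10640 at 10 h. Of 7 macrophage genes 5 were tested, of which 4 rose at 6 h and 5 at 10 h, against 24.1% and 23.7% of all genes. The macrophage genes summed to 23.6 to 26.4, 45.9 to 47.1 and 40.4 to 41.1 TPM. Of the defining macrophage genes, Marco was listed at 0 in all GMP samples at 0 h and C1qa in all at 6 h. Plasmacytoid dendritic cell genes (6) summed to 43.0 to 53.5, 40.3 to 45.8 and 34.6 to 37.1 TPM. The progenitor sums in CALM/AF10 cells were 6320 to 6836, 6367 to 6537 and 6997 to 7268 TPM, and the macrophage sums 224 to 251 TPM over all 9 samples. The part of these lists in the interferon results was not tested. The authors' deposited tables of junctions whose use changed (486 and 689 junctions at 6 h and 10 h in CALM/AF10 cells, 291 and 400 in GMPs) listed none of the 40 genes. Of the pathway genes outside the 40, they listed Traf3 at 6 h in CALM/AF10 cells and 4 genes at 10 h, among them Ddx60, Jak1 and Traf3. In GMPs they listed Apobec3 at both times and Ly6e at 10 h.

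The untreated lines are given as CPM and were tested with edgeR. CPM are estimated reads summed per gene and scaled to library size, with a correction factor per sample (TMM) set over all 12 samples. Each test was scaled anew over the samples it compared, so its log2 difference is not the ratio of the CPM shown. For Cmpk2, mean CPM of 47.3 and 47.36 in CALM/AF10 lines 1 and 2 stand beside a log2 difference of -0.17. Their depth ran from 8739673 to 25194822 estimated reads per sample. Between the CALM/AF10 lines, 38 of the 40 genes were tested (not Ifi44 and Ifit3b). In line 2, 16 were lower than in line 1 and 3 higher (Ifnar1, Ifnar2 and Irf3), against 14.3% and 13.5% of all genes, with a median of -0.32 against 0.0009. Rsad2 differed most, at 219, 213 and 216 CPM in line 1 and 30.9, 36.96 and 33.5 in line 2, a log2 difference of -2.86 ± 0.077 (adjusted p = 6.68e-13). Rtp4 read 18.1, 22.6 and 20.7 CPM in line 1 and 7.43, 5.71 and 5.02 in line 2, a log2 difference of -1.95 ± 0.21 (adjusted p = 6.17e-06). Isg15 read 16.7, 21.5 and 22.9 CPM in line 1 and 5.40, 7.01 and 7.08 in line 2, a log2 difference of -1.83 ± 0.21 (adjusted p = 9.55e-06). For all 3 of these the lines did not overlap. Ifit1 was at 19.6, 17.6 and 13.2 CPM in line 1 and 6.45, 6.27 and 8.32 in line 2, a log2 difference of -1.44 ± 0.22 (adjusted p = 0.000205), and Isg20 at 33.6, 31.7 and 32.0 CPM in line 1 and 14.8, 16.4 and 16.5 in line 2, a log2 difference of -1.21 ± 0.14 (adjusted p = 7.96e-06). Herc6 was lower in line 2, at 38.6, 32.3 and 34.2 CPM in line 1 and 18.4, 16.96 and 23.7 in line 2, a log2 difference of -1.01 ± 0.15 (adjusted p = 0.000147), and so was Irf7, a log2 difference of -0.86 ± 0.11 (adjusted p = 4.62e-05), at 50.9, 51.6 and 62.2 CPM in line 1 and 30.7, 36.1 and 35.9 in line 2. Cmpk2, the neighbour of Rsad2, did not pass the test, a log2 difference of -0.17 ± 0.12 (adjusted p = 0.31), and neither did Stat2, a log2 difference of 0.082 ± 0.10 (adjusted p = 0.612). Irf3 was higher in line 2, at 27.7, 32.2 and 27.95 CPM in line 1 and 51.9, 54.4 and 50.98 in line 2, a log2 difference of 0.65 ± 0.11 (adjusted p = 0.000346).

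Erythroid marker genes moved with this difference, summing to 665 to 839 TPM in line 1 and 84.7 to 98.6 TPM in line 2, and B cell genes, 22.3 to 31.5 and 9.99 to 11.7 TPM. Their part in it was not tested. In the time course of CALM/AF10 cells the erythroid sums were 0.982 TPM or below. On the TPM scale the median of all genes was 0.17 higher in line 2, where it was 0.0009 with counts, and 1840 of all genes were called higher and 732 lower, against 1694 and 1793 with counts. The limma fit on that scale, added after the data had been seen, called 6 genes lower. These were Rsad2, Rtp4, Isg15, Isg20, Ifit1 and Mx2, of which Mx2 passed the filter through line 1 alone. Genes called higher by that fit included Ifnar2 and Irf3. Of the 19 genes called with counts, 12 lost their call on the TPM scale, Ifnar1 among them. Relative to the shift of all genes, Irf7 was at -0.58 on the TPM scale and Eif2ak2 at -0.29, against -0.86 and -0.77 with counts.

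Between the MLL/AF9 lines, 8 of 38 genes were higher in line 2 and 11 lower, which are smaller shares than the 32.3% and 33.7% of all genes, and the median was -0.050. The split depended on the scale. In TPM the median of all genes was 0.42 higher in line 2, against 0.009 with counts, and limma called 6414 of all genes higher and 2213 lower, against 4634 and 4827 with edgeR. Of the 40 genes the TPM fit called 16 higher and 0 lower, with 0 lower also at an unadjusted p under 0.05. Of the 8 that edgeR called higher, 7 were also called on the TPM scale, all but Parp14. They were Ddx58, Irf1, Stat2, Herc6, Eif2ak2, Mx1 and Mx2. With counts, 5 were higher without line 1 replicate 2 and 7 lower without line 2 replicate 1. Herc6 read 19.8, 22.1 and 23.7 CPM in line 1 and 35.01, 37.4 and 44.01 in line 2, a log2 difference of 0.98 ± 0.12 (adjusted p = 4.22e-06), and Mx1 10.6, 7.41 and 9.58 CPM in line 1 and 16.1, 19.3 and 15.9 in line 2, a log2 difference of 1.05 ± 0.17 (adjusted p = 0.000107). Bst2 was lower in line 2, at 30.6, 26.7 and 29.2 CPM in line 1 and 12.4, 16.1 and 13.4 in line 2, a log2 difference of -0.89 ± 0.13 (adjusted p = 3.77e-05), and at -0.37 in log2(TPM + 1), where it did not pass, or -0.79 relative to the shift of all genes. Stromal and endothelial genes summed to 44.4 to 47.5 TPM in line 1 and 144 to 156 in line 2, and macrophage genes to 74.8 to 78.7 and 183 to 195. Their part in these differences was not tested.

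Between the fusions, with the counts of each line summed so that 2 lines stood against 2, 39 genes were tested and 2 were lower in MLL/AF9 lines, with 0 higher (2.14% and 0.934% of all genes). DESeq2 also called 0 higher but 5 lower, and 0 were higher at an unadjusted p under 0.05. The 2 were Ifi47, a log2 difference of -2.18 ± 0.39 (adjusted p = 0.0423), and Cmpk2, a log2 difference of -1.89 ± 0.34 (adjusted p = 0.0453). Ifi47, a GTPase gene that interferon gamma induces, read 31.2, 27.2 and 23.9 CPM in CALM/AF10 line 1 and 25.7, 26.96 and 19.6 in line 2. In the MLL/AF9 lines it read 6.14, 7.62 and 7.81 CPM in line 1 and 4.92, 3.91 and 4.48 in line 2. Cmpk2 read 52.7, 38.9 and 50.3 CPM in CALM/AF10 line 1 and 43.95, 49.6 and 48.6 in line 2, against 18.3, 16.8 and 15.3 in MLL/AF9 line 1 and 12.4, 8.52 and 6.96 in line 2. For both genes the fusions did not overlap. Without CALM/AF10 line 1 their adjusted p were 0.18 and 0.089, and on the TPM scale neither was called. Without MLL/AF9 line 1 as a whole 4 genes were lower, without CALM/AF10 line 2 as a whole 1, and without CALM/AF10 line 1 as a whole 0. Leaving out MLL/AF9 line 1 replicate 3 or line 2 replicate 1 left 1. Rsad2 had the largest log2 difference, -3.34 ± 0.85 (adjusted p = 0.113), which did not pass: its MLL/AF9 samples were at 15.5, 12.9 and 12.1 CPM in line 1 and 11.2, 15.3 and 10.2 in line 2, below both CALM/AF10 lines, which themselves differed.

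**Figure D4:**
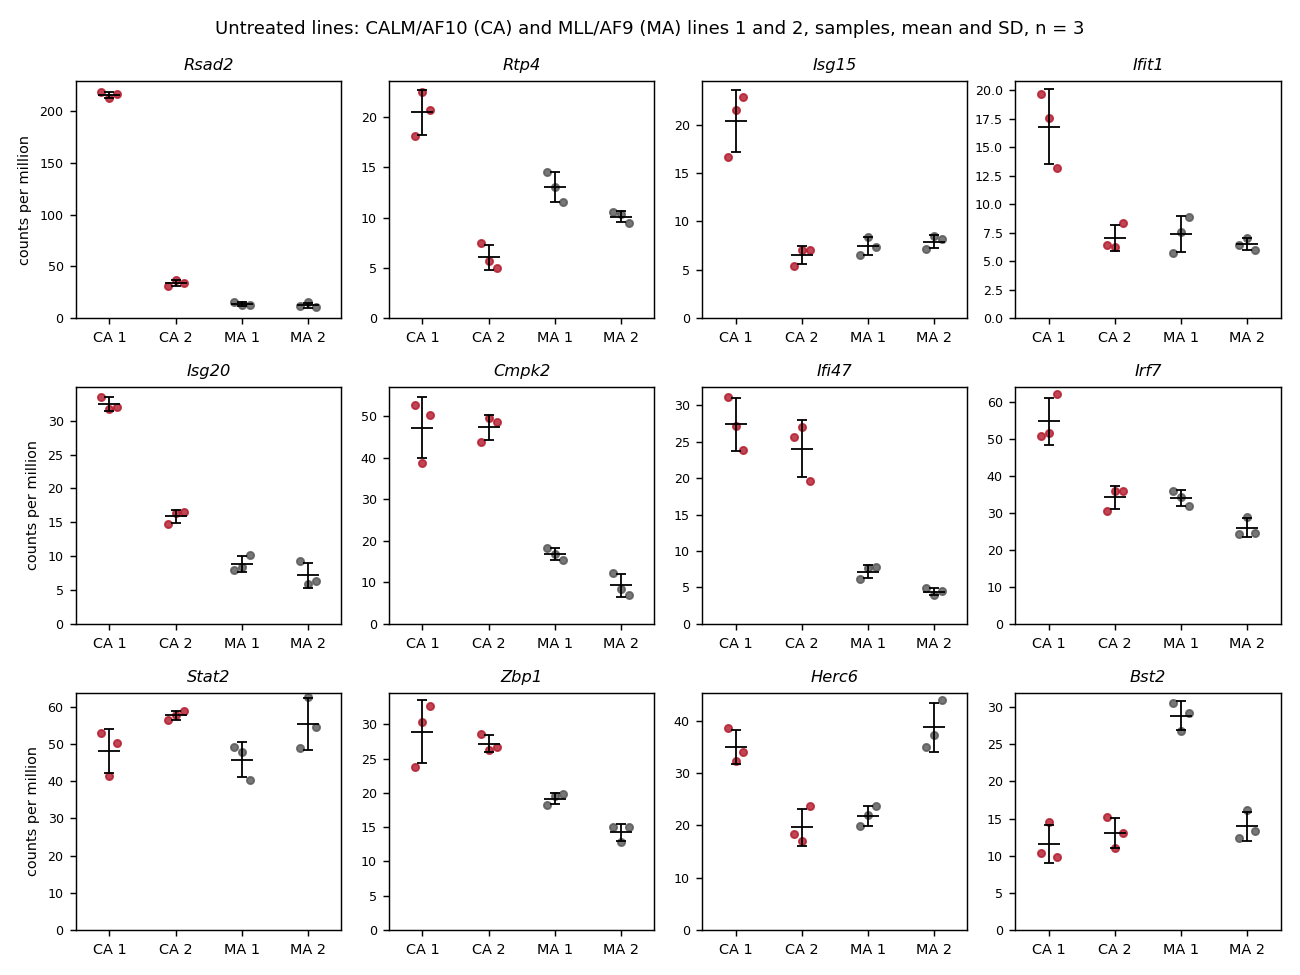
CPM of 12 genes in the untreated CALM/AF10 lines (CA 1 and CA 2, red) and MLL/AF9 lines (MA 1 and MA 2, grey), with a point per sample, the mean and the SD (n = 3). Rsad2 is near 216 in CALM/AF10 line 1 and lower in the other 3 lines, and Cmpk2 and Ifi47 are higher in both CALM/AF10 lines than in both MLL/AF9 lines.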

How the data were processed

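Per the labels' protocols, RNA was extracted with RNeasy columns and libraries were made with the Ovation Mouse RNA-Seq System. The submitters' processing notes name STAR and the mm10 build, with no role given. The deposited time-course tables hold TPM per gene, and the files of the 12 line samples hold TPM and estimated counts per transcript. The authors' deposited junction tables hold q-values, from which only the genes listed were taken. The quantifier, its annotation and its use of strand are not given in the sources used here.

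Transcripts of the lines were summed to genes with GENCODE M21 (98294 of 99567 transcripts matched, leaving 0.709% to 1.12% of reads), and sums were rounded. Time courses were tested with limma 3.58.1 (R 4.3.3) with a trend on log2(TPM + 1), for genes at 1 TPM or more in at least 3 samples. The difference of changes was a contrast in a fit of all 18 samples over the 30337 symbols in both tables. Lines were tested with edgeR 4.0.16 (quasi-likelihood, TMM scaling). For the fusions, counts were summed per line. P-values were adjusted by Benjamini-Hochberg across each fit's genes, and an adjusted p under 0.05 was a call. Alternatives were other pseudocounts, filters, scalings and sample sets, DESeq2 1.42.0, and TPM in place of counts for the lines. Scripts were tested on simulated data. No columns were identical between samples, and replicates correlated at 0.9485 to 0.9913.

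The genes, lists and tests were chosen with earlier results of these data known. By the naming rule any of the 40 genes may be named. Of the pathway lists, up to 4 called genes with the largest change and a mean of at least 5 TPM were named, besides those in the junction tables. Socs1 in CALM/AF10 cells was added after its values were seen. A gene of the signalling list is counted but not reported here. Promoters came from the RefSeq table of build GRCm38.p6.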

Additional observations from a re-analysis of the deposited data

Results flagged for a closer look

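The changes listed here differed between CALM/AF10 cells and GMPs by the test of the difference itself (limma, adjusted over all genes). Each value subtracts a gene's change in GMPs from its change in CALM/AF10 cells, in log2(TPM + 1), and both times share the samples at 0 h. No explanation was tested.

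At 6 h the difference was below 0 for Dhx58 (-0.94), Ifih1 (-0.56), Ddx58 (-0.97), Mavs (-0.36), Zbp1 (-2.04), Irf7 (-2.42), Stat2 (-0.62), Isg15 (-1.22), Usp18 (-1.12), Trim25 (-0.39), Parp12 (-1.71), Parp14 (-0.66), Mx1 (-1.11), Bst2 (-1.08), Ifi35 (-0.94), Ifi27 (-0.46), Rtp4 (-1.78), Trim30a (-0.90) and Slfn5 (-0.98). It was above 0 for Ifnar2 (0.38), Irf1 (1.88) and Cmpk2 (0.60).

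At 10 h it was above 0 for Dhx58 (0.69), Ifih1 (0.74), Ifnar2 (0.49), Irf1 (1.86), Irf9 (0.51), Isg15 (0.99), Dtx3l (0.72), Ifit1 (1.14), Ifit2 (1.17), Ifit3 (1.04), Isg20 (0.64), Rsad2 (1.39), Cmpk2 (1.44), Rtp4 (0.56), Xaf1 (1.30) and Sp100 (1.12). It was below 0 for Zbp1 (-0.78), Bst2 (-0.66) and Ifi35 (-0.39). Of these 41 differences, those of Zbp1, Bst2 and Ifi35 were below 0 at both times. Those of Dhx58, Ifih1, Isg15 and Rtp4 were below 0 at 6 h and above 0 at 10 h. Irf1, Ifnar2 and Cmpk2 were above 0 at both times. Under some alternative, the calls of Zbp1, Irf9, Ifit1, Ifit2, Ifit3, Isg20, Rtp4 and Xaf1 were lost at 10 h, and those of Trim25 and Cmpk2 at 6 h. Rtp4 at 10 h had an adjusted p of 0.0494 (limma). Its call was lost with a pseudocount of 0.1, without the filter on low values, and with median centring or quantile normalization.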

How the results depend on the processing

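Of the called genes, the number called under every alternative was 0 of 4 at 6 h and 13 of 21 at 10 h in CALM/AF10 cells, 4 of 8 from 6 h to 10 h there, and 22 of 23, 10 of 14 and 7 of 15 in GMPs (6 h and 10 h against 0 h, and 10 h against 6 h). It was 20 of 22 and 11 of 19 for the difference of changes at 6 h and 10 h, 7 of 19 between the CALM/AF10 lines, 4 of 19 between the MLL/AF9 lines and 0 of 2 between the fusions. Without a filter on low values, 0 of the 40 genes were higher and 0 lower at 6 h in CALM/AF10 cells, 4 were higher from 6 h to 10 h, 10 had a higher change at 10 h than in GMPs, 5 were higher in MLL/AF9 line 2 and 4 lower in MLL/AF9 lines. Over all genes it gave 188 calls in place of 376 (CALM/AF10 cells, 10 h against 6 h), 639 in place of 1009 (GMPs, 10 h against 6 h) and 1234 in place of 470 (fusions). Median centring gave 0 lower at 6 h and 1 lower at 10 h in CALM/AF10 cells. Quantile normalization gave 0 and 2 lower there, 4 higher from 6 h to 10 h, and 5 lower changes at 10 h than in GMPs. With only the 2 times compared, 5 were higher at 6 h in CALM/AF10 cells and 5 from 6 h to 10 h, with 140 calls over all genes. Between the fusions DESeq2 called 5 lower and 1463 of all genes, and the 12 samples taken as replicates gave 4 higher, 13 lower and 5346 of all genes. The TPM scale, added after the data had been seen, gave 6 lower between the CALM/AF10 lines, 16 higher and 0 lower between the MLL/AF9 lines, and 0 lower between the fusions. On it the MLL/AF9 differences turned to above 0 for Ifnar1 (0.047), Trim25 (0.36), Dtx3l (0.0047), Parp9 (0.26), Trim30a (0.82) and Sp100 (0.20). All of these lie at or below the shift of all genes by 0.42 except that of Trim30a. Causes of these shifts were not tested.

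Leaving out a sample at a time gave, in CALM/AF10 cells, 0 to 4 higher and 0 to 1 lower at 6 h (all genes 1087 to 1794), 13 to 25 and 0 to 1 at 10 h (1757 to 2300), and 4 to 19 and 0 to 0 from 6 h to 10 h (64 to 336). In GMPs it gave 18 to 23 and 2 to 3 at 6 h (5478 to 5954), 7 to 9 and 3 to 7 at 10 h (5381 to 6562), and 0 to 0 and 8 to 17 from 6 h to 10 h (371 to 1199). The difference of changes had 2 to 4 higher and 19 to 20 lower at 6 h (4859 to 5410) and 9 to 19 and 2 to 7 at 10 h (4879 to 5570). Lines had 3 to 4 and 14 to 17 (CALM/AF10, 2642 to 3303), 5 to 9 and 7 to 11 (MLL/AF9, 8142 to 8682), and fusions 0 to 0 and 0 to 4 (419 to 2386). Without MLL/AF9 line 2 as a whole the fusions gave 739 calls over all genes.

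With the replicate number as a block, 4 were higher and 16 lower between the CALM/AF10 lines and 7 and 11 between the MLL/AF9 lines, where Irf1 lost its call. Deviations of same-numbered samples correlated at -0.0139 to 0.0371, so the numbers were not taken to pair the samples. No paired analysis was possible because the columns of the time-course tables carry no replicate number.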
